A study of Mus musculus with 18 samples.

Results

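Arpp21, Mbd1, Cipc and Gzmc are 4 genes whose signal set the RPE/choroid of TAA-injected mice apart from that of Dex-injected mice. They were chosen by their TAA against Dex difference in these same arrays, so that this difference is described here and not tested. Every probe set annotated to 1 of the 4 symbols alone was taken, which gave 14 of the 45101 probe sets of the array: 5 of Arpp21, 5 of Mbd1, 3 of Cipc and 1 of Gzmc. They are 4 of 18194 genes with a probe set of their own. The samples were RPE/choroid of male mice of strain C57BL6/J, aged 2 months per the labels, from 3 treatments: triamcinolone acetonide (TAA, 25 µg), dexamethasone (Dex, 10 µg) and balanced salt solution (BSS, the solvent of both steroids and the control), each as 1 intravitreal injection of 1 µL. Eyes were collected at day 7 or day 30, and each of the 6 groups had 3 arrays from separate animals (TAA, Dex and BSS at each day). TAA and Dex were given at different doses, so that the steroid and its dose cannot be told apart. Animals in a group were picked for RNA quality, the retina was peeled away by hand, and much of the choroid may have stayed on the discarded sclera, per the methods.

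TAA and Dex are synthetic glucocorticoids. They bind the glucocorticoid receptor, which then enters the nucleus and raises or lowers the transcription of genes near its binding sites. The RPE is a pigmented sheet that recycles visual pigment, takes up shed photoreceptor tips and forms the outer blood-retinal barrier over the vessels of the choroid. The 4 genes have separate roles. Arpp21 encodes a cAMP-regulated phosphoprotein known from neurons of the striatum, where it tunes calmodulin signaling, and which also binds RNA. Mbd1 encodes a repressor that reads methylated CpG sites in DNA. Cipc encodes a repressor that binds CLOCK and dampens the activity of the circadian activator pair CLOCK and Bmal1. Gzmc encodes granzyme C, a serine protease from the granules of cytotoxic lymphocytes.

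Values are log2 signals from which the median of the 18 arrays was subtracted for each probe set, so that 0 is the middle array of that probe set, and 1 unit is a doubling. They hold differences between arrays and no level, and no gene can be ranked above another by abundance. The presence of RPE markers could not be checked for the same reason. SE is limma's standard error, which draws on the spread within all 6 groups. Precision is limited by the number of arrays, since an exact two-sided permutation test of 3 against 3 arrays cannot go below p = 0.1. In tissue, fewer cells of a type and less RNA per cell cannot be told apart. The SD of an array over its probe sets lay between 0.192 and 0.416, and the score of 10 rod photoreceptor markers, the mean of their values in an array, lay between -1.78 in TAA day 7 replicate 2 and 3.82 in BSS day 30 replicate 1. Rod scores were 2.80, 3.50 and -1.75 in TAA, -1.63, 0.17 and 3.63 in Dex and 3.82, -0.58 and 3.75 in BSS at day 30. At day 7 they were -0.36, -1.78 and 2.38 in TAA, 1.55, 1.85 and -0.37 in Dex and -1.58, -0.997 and -0.64 in BSS. The rod score thus varied within groups. BSS day 30 replicate 2 stood apart from the other BSS arrays of its day, and so did replicate 3 in TAA at both days and in Dex at day 7 from theirs. All 10 rod markers were lower in TAA than in Dex at day 7 (median -1.23) and higher at day 30 (median 0.80), and 0 were called. Of 12 RPE markers, 8 were higher in TAA than in Dex at day 7 (median 0.05) and 4 at day 30 (median -0.08), and 0 were called.

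Start-site windows of RefSeq (build GRCm38.p6, 300 bases around a gene start, most of them before it) were read for 3 of the genes. They held 2 windows for Cipc, 9 for Arpp21 and 1 for Gzmc. Both strands were searched for the clock E-box CACGTG, for the glucocorticoid receptor half-site AGAACA, which reads TGTTCT on the other strand, and for the full glucocorticoid response element, which pairs a half-site with its reverse complement across 3 bases. The E-box was in 1 of the 2 Cipc windows and in 7.15% of all 32851 windows. The half-site was in 1 of the 9 Arpp21 windows and in 19% of all windows. The full element was in 0 windows of the 3 genes and in 0.00913% of all windows. The 2 windows with a match are shown because Cipc acts on the pair of proteins that binds the E-box and because both agents are glucocorticoids. The Cipc window is chr12:86947093-86947392 on the + strand, with the E-box, at bases 234 to 239, in capitals. The Arpp21 window is chr9:112187717-112188016 on the - strand, with the half-site, also at bases 234 to 239, in capitals. A match of letters is a description and not a binding site.
Cipc: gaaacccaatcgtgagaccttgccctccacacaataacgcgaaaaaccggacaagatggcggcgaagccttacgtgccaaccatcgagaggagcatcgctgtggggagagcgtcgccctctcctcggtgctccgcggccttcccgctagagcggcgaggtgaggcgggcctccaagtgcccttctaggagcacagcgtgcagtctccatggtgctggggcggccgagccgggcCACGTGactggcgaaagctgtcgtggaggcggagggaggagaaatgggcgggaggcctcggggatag
Arpp21: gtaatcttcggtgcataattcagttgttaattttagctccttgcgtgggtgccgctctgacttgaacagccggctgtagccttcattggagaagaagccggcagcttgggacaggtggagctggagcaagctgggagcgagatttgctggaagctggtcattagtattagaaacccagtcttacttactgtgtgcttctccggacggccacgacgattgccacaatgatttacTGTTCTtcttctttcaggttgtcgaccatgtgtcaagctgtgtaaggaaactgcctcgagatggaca

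No probe set was called between TAA and Dex by limma after Benjamini-Hochberg adjustment over 45101 probe sets, 0 at day 7 (0% called, with 1217 at an unadjusted p under 0.05) and 0 at day 30 (0% called, with 861). The methods' t-test, adjusted in the same way, also called 0 at both days. Of the 14 member probe sets, 5 had 3 TAA arrays all on 1 side of the 3 Dex arrays at day 7 (2 higher, 3 lower), against 11.1% of all probe sets, and 2 did at day 30 (both lower), against 4.9%. These counts follow from how the members were chosen, and nothing is read from them. The leading probe set of a gene is the one with the largest TAA minus Dex difference at either day, and in 3 of the genes that day was day 7. By the size of the difference among 45101 probe sets at day 7, Mbd1 was at rank 203, Cipc at rank 299 and Arpp21 at rank 478. Gzmc was at rank 161 at day 30.

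**Figure D1:**
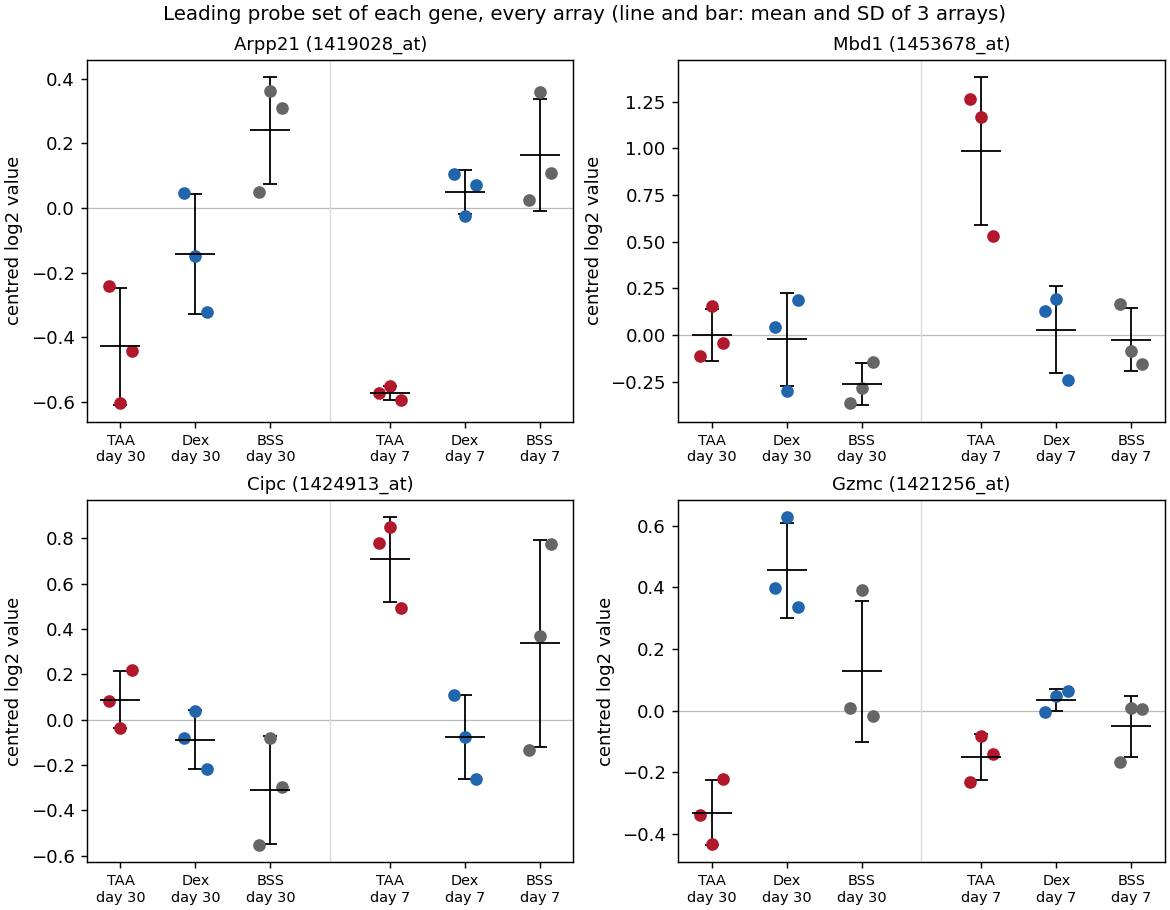
Centred log2 values of the leading probe set of Arpp21, Mbd1, Cipc and Gzmc, 1 point per array, with the mean and SD of the 3 arrays of each group. TAA is the lowest group at both days for Arpp21 and Gzmc, and the 3 TAA arrays at day 7 lie above the Dex arrays for Mbd1 and Cipc.

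Arpp21 was low after TAA at both days. At day 7 the leading probe set, 1419028_at, read -0.57, -0.55 and -0.59 in TAA, 0.10, -0.03 and 0.07 in Dex, and 0.03, 0.36 and 0.11 in BSS. The TAA arrays lay within a few hundredths of each other and below every Dex and BSS array of that day. The difference was -0.62 for TAA minus Dex (SE 0.12, fold change -1.54) and -0.74 for TAA minus BSS (SE 0.12, fold change -1.66), while Dex minus BSS was -0.11 (SE 0.12) with overlapping arrays. At day 30 it read -0.24, -0.60 and -0.44 in TAA, 0.05, -0.15 and -0.32 in Dex, and 0.05, 0.36 and 0.31 in BSS. The TAA arrays overlapped those of Dex but not those of BSS. TAA minus Dex was then -0.29 (SE 0.12), TAA minus BSS was -0.67 (SE 0.12) and Dex minus BSS was -0.38 (SE 0.12), the last with all 3 Dex arrays below the BSS arrays by a gap of 0.0026. Ordered by mean, Arpp21 ran from BSS day 30 (0.24) through BSS day 7 (0.16), Dex day 7 (0.05), Dex day 30 (-0.14) and TAA day 30 (-0.43) to TAA day 7 (-0.57), and the ranges of all neighbors in that order overlapped.

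The other 4 probe sets of Arpp21 did not share this pattern to the same size. The nearest, 1424248_at, read -0.25, -0.05 and -0.10 in TAA against 0.12, 0.06 and -0.05 in Dex at day 7. Its TAA arrays lay below the Dex arrays by 0.0062 at the closest point, and the difference was -0.18 (SE 0.12). TAA minus BSS was -0.32 (SE 0.12) at day 7, with all TAA arrays lower, and -0.02 (SE 0.12) at day 30. The Pearson r of 1424248_at with the leading probe set over the 18 arrays was 0.63 (Spearman coefficient 0.59). The remaining 3 had r between -0.10 and 0.07 with the leading probe set and TAA minus Dex differences between -0.05 and 0.03 at day 7. Their TAA minus BSS differences at day 7 lay between -0.03 and 0.06. None of the 4 is listed in the annotation under the same sequence record as the leading probe set. The size of the TAA minus Dex difference for the gene therefore rested on 1 probe set.

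Markers of skeletal muscle were also lower in TAA than in Dex. All 10 markers measured were lower in TAA than in Dex at day 7, with a median difference of -0.64. Over all 18194 genes 49.4% were higher and the median was -0.0015. The arrays of 6 of the 10 did not overlap. Of all 45101 probe sets, 2417 lay apart in that direction at day 7, and 11.1% in either direction. At day 30 all 10 were again lower, with a median of -0.38 and none free of overlap, against 4.9% of all probe sets in either direction. None was called. The muscle score, the mean of the 10 values, was -0.23, -0.53 and -0.72 in TAA, 0.33, -0.14 and 0.20 in Dex and 0.14, 0.30 and -0.06 in BSS at day 7. At day 30 it was 0.15, -0.66 and -0.30 in TAA, -0.22, 0.29 and 0.24 in Dex and -0.36, 0.31 and 0.16 in BSS, so that the groups overlapped. BSS day 30 replicate 1, with a muscle score of -0.36, had an Arpp21 value of 0.05, both the lowest among the BSS arrays of that day. Dex day 30 replicate 1 had the lowest muscle score of its group (-0.22) but the highest Arpp21 value (0.05). In Dex minus BSS at day 30, Arpp21 was at -0.38, while 6 of the 10 muscle markers were higher and 4 lower (median 0.03). The markers with the largest differences at day 7 were Pvalb, a calcium buffer of fast fibers, at -1.02 (SE 0.22), Myl1, a myosin light chain, at -0.96 (SE 0.29) and Tnnt3, a troponin of fast muscle, at -0.79 (SE 0.25). The genes most like Arpp21 over the 18 arrays were Satb1, a chromatin organizer (r = 0.86), Tpm2, a tropomyosin (r = 0.84), and Trdn, which encodes triadin of the muscle calcium store (r = 0.80). These r values include the arrays by which Arpp21 was chosen. Lens markers were also lower in TAA than in Dex at day 7, 6 of 6 with a median of -1.52, but 4 of 6 were higher at day 30 (median 0.06). At day 7, 1 of the 6 was free of overlap, against 11.1% of all probe sets in either direction. The part of muscle or lens tissue in the Arpp21 difference was not tested.

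**Figure D2:**
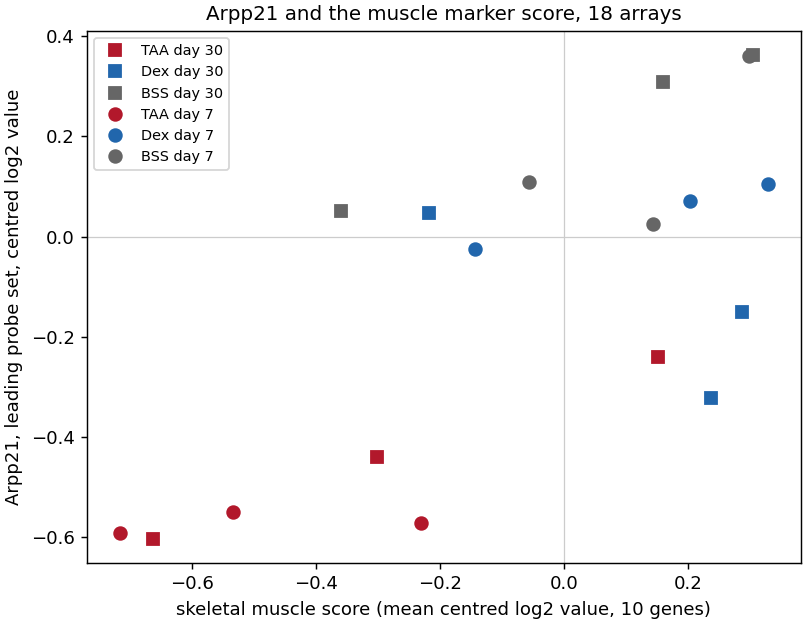
The centred log2 value of Arpp21 probe set 1419028_at (vertical axis) against the mean of 10 skeletal muscle markers (horizontal axis) on the same scale, 1 point per array, colored by treatment, with squares for day 30 and circles for day 7. The TAA day 7 arrays lie at muscle scores from -0.72 to -0.23 and at Arpp21 values from -0.59 to -0.55.

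Arpp21 was named after its regulation by cAMP, so 14 of 15 listed partners in cAMP and dopamine signaling, genes of striatal neurons, were looked up. None was called in TAA against Dex, 6 were higher at day 7 (median -0.044) and 11 were higher at day 30 (median 0.10). The largest differences were those of Penk, an opioid precursor, with -0.60 at day 7 and 0.25 at day 30 (SE 0.70), of Pde1b, a phosphodiesterase, with -0.32 and -0.21 (SE 0.36), and of Tac1, the substance P precursor, with -0.07 and 0.31 (SE 0.41). The SE was larger than the difference in each of these cases, which were picked by size, while some smaller differences of other partners exceeded their SE. All 10 neuron markers were lower in TAA than in Dex at day 7 (median -0.41) and higher at day 30 (median 0.33). Their mean varied within groups, with -0.40, -0.65 and 0.77 in TAA at day 7. The part of neurons in the Arpp21 difference was not tested.

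Mbd1 was higher in TAA than in Dex and BSS at day 7, and at day 30 the arrays of TAA and Dex overlapped. The leading probe set, 1453678_at, read 1.26, 1.17 and 0.53 in TAA, 0.13, 0.20 and -0.24 in Dex, and 0.17, -0.09 and -0.15 in BSS at day 7. Every TAA array lay above every other array of that day, with TAA replicate 3 below the other two. TAA minus Dex was 0.96 (SE 0.18, fold change 1.94) and TAA minus BSS was 1.01 (SE 0.18, fold change 2.01). Dex minus BSS was 0.05 (SE 0.18). At day 30 it read -0.11, 0.16 and -0.04 in TAA, 0.04, -0.30 and 0.19 in Dex, and -0.37, -0.28 and -0.14 in BSS. TAA and Dex were then mixed, with a difference of 0.02 (SE 0.18), and TAA minus BSS was 0.26 (SE 0.18) with the TAA arrays just above the BSS arrays. In the order of the group means, TAA day 7 (0.99) was followed by Dex day 7 (0.03), and these neighbors did not overlap. Below them the means lay between 0.03 and -0.26 and all neighbors overlapped. The TAA day 30 mean was lower than the TAA day 7 mean by 0.99 (SE 0.18, log2), and the TAA minus Dex difference at day 30 minus that at day 7 was -0.93 (SE 0.26).

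The other 4 Mbd1 probe sets had the same sign at day 7, at sizes from 0.05 to 0.29. The largest of them, 1430838_x_at, read 0.43, 0.64 and 0.23 in TAA, against -0.00, 0.44 and 0.01 in Dex and 0.30, 0.01 and -0.02 in BSS at day 7. Its TAA arrays overlapped those of Dex, and TAA minus Dex was 0.29 (SE 0.14). It is listed under the same sequence record as the leading probe set, and the x in its name marks probes that may bind other transcripts. Its r with the leading probe set was 0.85 over 18 arrays (Spearman 0.83), that of 1417968_a_at was 0.71 (Spearman 0.49), that of 1430837_a_at was 0.46 and that of 1437061_at was 0.44. At day 30 the other 4 ran from -0.18 to 0.12, 2 of them higher and 2 lower. TAA minus BSS of these 4 ran from 0.11 to 0.34 at day 7. Only in 1417968_a_at, at 0.34 (SE 0.12), did all TAA arrays lie above the BSS arrays, by a gap of 0.0025.

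Of 17 other methyl-CpG readers and DNA methylation genes measured, 0 were called in TAA against Dex at either day. At day 7, 9 were higher and 8 lower, with a median of 0.02, and at day 30, 7 were higher and 10 lower, with a median of -0.0088. The largest differences were those of Mbd3, a subunit of the NuRD repressor, with 0.08 at day 7 and 0.30 at day 30 (SE 0.14), of Mbd6, another protein of the MBD family, with 0.03 and -0.22 (SE 0.13), and of Uhrf1, which guides maintenance methylation, with 0.09 and 0.21 (SE 0.25). The genes most like Mbd1 over the 18 arrays were Saa3, an acute phase serum amyloid (r = 0.83), Slc39a14, a zinc and iron importer (r = 0.82), and Slc7a5, a carrier of large neutral amino acids (r = 0.81). Their TAA minus Dex differences at day 7 were 2.03, 0.30 and 0.71, and at day 30 they were -0.46, -0.09 and -0.20. These r values, too, include the arrays by which Mbd1 was chosen.

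Cipc was higher in TAA than in Dex at day 7, with BSS spread across both. The leading probe set, 1424913_at, read 0.78, 0.85 and 0.49 in TAA, 0.11, -0.08 and -0.26 in Dex, and -0.13, 0.37 and 0.78 in BSS at day 7. The BSS arrays covered the range from the Dex arrays to the TAA arrays. TAA minus Dex was 0.78 (SE 0.19, fold change 1.72), TAA minus BSS was 0.37 (SE 0.19) and Dex minus BSS was -0.41 (SE 0.19), so that the means of the steroids lay on opposite sides of BSS, both with overlapping arrays. Without BSS replicate 1, TAA minus BSS was 0.13 and Dex minus BSS was -0.65, and without BSS replicate 3 they were 0.59 and -0.19. At day 30 it read 0.08, -0.04 and 0.22 in TAA, -0.08, 0.04 and -0.22 in Dex, and -0.55, -0.08 and -0.30 in BSS. TAA minus Dex was 0.18 (SE 0.19), TAA minus BSS was 0.40 (SE 0.19) with no overlap, and Dex minus BSS was 0.22 (SE 0.19). The order of the means was TAA day 7 (0.71), BSS day 7 (0.34), TAA day 30 (0.09), Dex day 7 (-0.08), Dex day 30 (-0.09) and BSS day 30 (-0.31), and all neighbors overlapped.

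All 3 Cipc probe sets are listed in the annotation under the same sequence record. Probe set 1424914_at read 0.20, 0.31 and 0.10 in TAA against -0.19, 0.02 and 0.18 in Dex at day 7, a difference of 0.20 (SE 0.17). Probe set 1424915_s_at read 0.25, 0.17 and 0.00 in TAA against 0.01, -0.00 and -0.03 in Dex, a difference of 0.14 (SE 0.12). Both had overlapping arrays and the sign of the leading probe set, and at day 30 they were at 0.21 (SE 0.17) and 0.12 (SE 0.12). Their r with the leading probe set was 0.23 and 0.51, in that order. The leading probe set had a within-group SD of 0.247, above that of 82.1% of all probe sets, against a median of 0.159.

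Of 21 clock genes measured, 0 were called in TAA against Dex, with 12 higher at each day and medians of 0.02 at day 7 and 0.0084 at day 30. Nfil3, a repressor of clock output, differed by 0.40 at day 7 and 0.0084 at day 30 (SE 0.20), Nr1d1, which encodes the repressor Rev-erb alpha, by -0.36 and 0.09 (SE 0.17), and Rorb, a nuclear receptor that binds the same elements, by 0.09 and 0.32 (SE 0.30). The genes most like Cipc were Etv5, an ETS transcription factor (r = 0.87), Plscr1, a phospholipid scramblase (r = 0.85), and Lims1, an adaptor of focal adhesions (r = 0.84). Their TAA minus Dex differences at day 7 were 0.20, 0.35 and 0.53. These r values include the arrays by which Cipc was chosen.

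Gzmc separated the steroids at day 30. Its single probe set, 1421256_at, read -0.34, -0.43 and -0.22 in TAA, 0.40, 0.63 and 0.34 in Dex, and 0.01, 0.39 and -0.02 in BSS. The TAA arrays were the lowest and lay apart from both other groups, while the Dex arrays overlapped those of BSS through BSS replicate 2. TAA minus Dex was -0.79 (SE 0.11, fold change -1.72), TAA minus BSS was -0.46 (SE 0.11) and Dex minus BSS was 0.33 (SE 0.11). Without BSS replicate 2, TAA minus BSS was -0.33 and Dex minus BSS was 0.46. At day 7 it read -0.23, -0.08 and -0.14 in TAA, -0.01, 0.05 and 0.06 in Dex, and -0.17, 0.01 and 0.01 in BSS. The TAA arrays lay below the Dex arrays again, by a smaller difference of -0.19 (SE 0.11), with TAA minus BSS at -0.10 and Dex minus BSS at 0.09. The mean was higher by 0.42 in Dex at day 30 than in Dex at day 7 and differed by -0.18 in TAA (SE 0.11 each). All neighbors in the order of the means, Dex day 30 (0.45), BSS day 30 (0.13), Dex day 7 (0.03), BSS day 7 (-0.05), TAA day 7 (-0.15) and TAA day 30 (-0.33), overlapped.

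In the RefSeq gene order Gzmc lies between Gzmf and Gzmb, in a run of granzyme genes on chromosome 14. At day 30, TAA minus Dex was -0.38 for Gzmb (SE 0.16), which encodes the main granzyme of killer cells, and -0.05 for Gzmf (SE 0.10), both with overlapping arrays. Gzma, on another chromosome, was at -0.43 (SE 0.29) with all TAA arrays below the Dex arrays. The other granzyme probe sets with 1 gene ran from -0.07 to 0.25, the last for Gzmm with an SE of 0.31. At day 7, Gzmb was at 0.02, Gzma at 0.18 and Gzme at -0.26 (SE 0.10), against -0.19 (SE 0.11) for Gzmc. A probe set shared by Gzme and Gzmd was then at -0.29 (SE 0.11), and the others with 1 gene ran from -0.18 to 0.15. Of 15 genes of cytotoxic granules, 10 were lower in TAA than in Dex at day 30 (median -0.064) and 9 at day 7 (median -0.021), and 0 were called at either day. Cma1, a mast cell chymase of the same gene cluster, differed by -0.54 at day 7 and -0.31 at day 30 (SE 0.40), and Nkg7, a granule membrane protein, by -0.29 and -0.39 (SE 0.24).

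**Figure D3:**
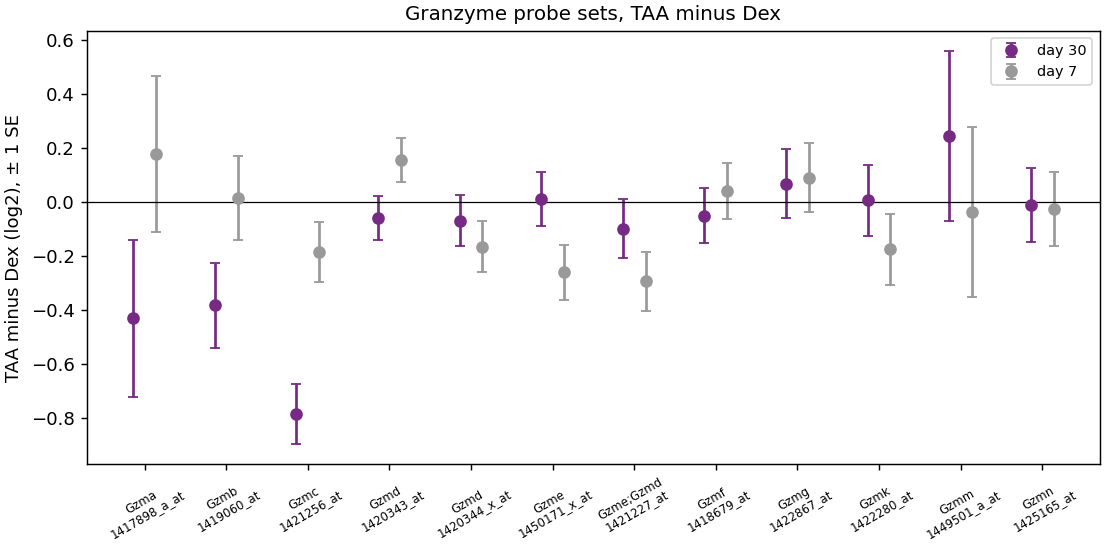
TAA minus Dex on the log2 scale (vertical axis) for each granzyme probe set (horizontal axis), with bars of 1 SE, at day 30 and day 7. Gzmc is at -0.79 at day 30, Gzma at -0.43 and Gzmb at -0.38, and the other probe sets lie between -0.10 and 0.25 at that day.

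Of 9 measured markers of T and NK cells, which carry granzymes, 5 were higher in TAA than in Dex at day 30 (median 0.03) and 4 at day 7 (median -0.02), with 0 called. At day 30, 1 of the 9 had all TAA arrays below the Dex arrays. Of all 45101 probe sets, 1280 did so at that day, and 4.9% lay apart in either direction. The score of the 9 was -0.17, -0.14 and 0.05 in TAA, 0.06, -0.08 and -0.14 in Dex and -0.04, 0.10 and 0.06 in BSS at day 30. Klrd1, an NK receptor chain, differed by -0.28 at day 7 and -0.31 at day 30 (SE 0.26), Cd3g, a chain of the T cell receptor complex, by -0.27 and -0.10 (SE 0.23), and Klrk1, which encodes NKG2D, by -0.10 and 0.04 (SE 0.14). Of 10 macrophage markers, 9 were lower in TAA than in Dex at day 30, with a median of -0.52 and 0 called. The macrophage score was -0.27, -0.88 and 0.03 in TAA, -0.08, 0.37 and 0.06 in Dex and -0.38, 0.02 and -0.04 in BSS, so that the groups overlapped. The part of macrophages in the Gzmc difference was not tested. The genes most like Gzmc were Col20a1, a collagen (r = 0.79), Gmip, a GTPase-activating protein (r = 0.79), and Ngfr, a neurotrophin receptor (r = 0.76), with TAA minus Dex differences at day 30 of -0.36, -0.32 and -0.33. These r values include the arrays by which Gzmc was chosen.

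**Figure D4:**
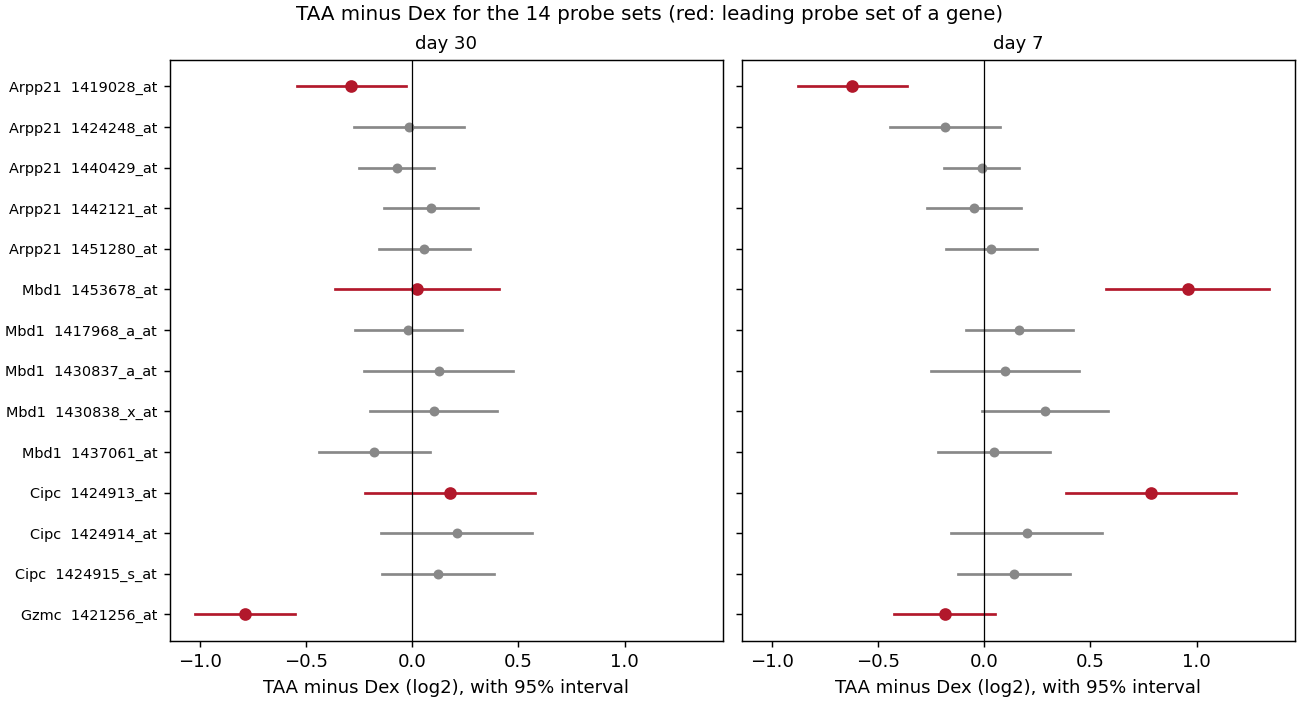
TAA minus Dex on the log2 scale (horizontal axis) for the 14 probe sets, with the 95% interval from limma, at day 30 and day 7. Red marks the leading probe set of each gene. At day 7 the leading Mbd1 and Cipc probe sets are at 0.96 and 0.78 and that of Arpp21 at -0.62, while the other 10 probe sets, Gzmc aside, lie between -0.18 and 0.29.

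Among themselves the 4 leading probe sets ran in 2 directions. Over the 18 arrays, Mbd1 and Cipc had an r of 0.67 with each other, Arpp21 had -0.66 with Mbd1 and -0.42 with Cipc, and Gzmc had 0.44 with Arpp21, -0.36 with Mbd1 and -0.28 with Cipc. These values share the arrays by which the genes were chosen. The within-group SD was 0.147 for Arpp21, 0.237 for Mbd1 and 0.132 for Gzmc.

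The comparisons with BSS share the BSS arrays between the steroids. In TAA against BSS, the arrays of 4 of 14 member probe sets lay apart at day 7 (2 higher, 2 lower), against 10.8% of all probe sets, and 4 at day 30 (2 higher, 2 lower), against 5.97%. In Dex against BSS, 0 of 14 lay apart at day 7, against 8.95% of all, and 2 at day 30 (1 higher, 1 lower), against 4.84%. Since the members were chosen on the TAA and Dex arrays, these counts are not read further. Dex minus BSS was -0.41 for Cipc at day 7, and -0.19 without BSS day 7 replicate 3, and it was -0.38 for Arpp21 at day 30. TAA minus BSS was 1.01 for Mbd1 at day 7.

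**Figure D5:**
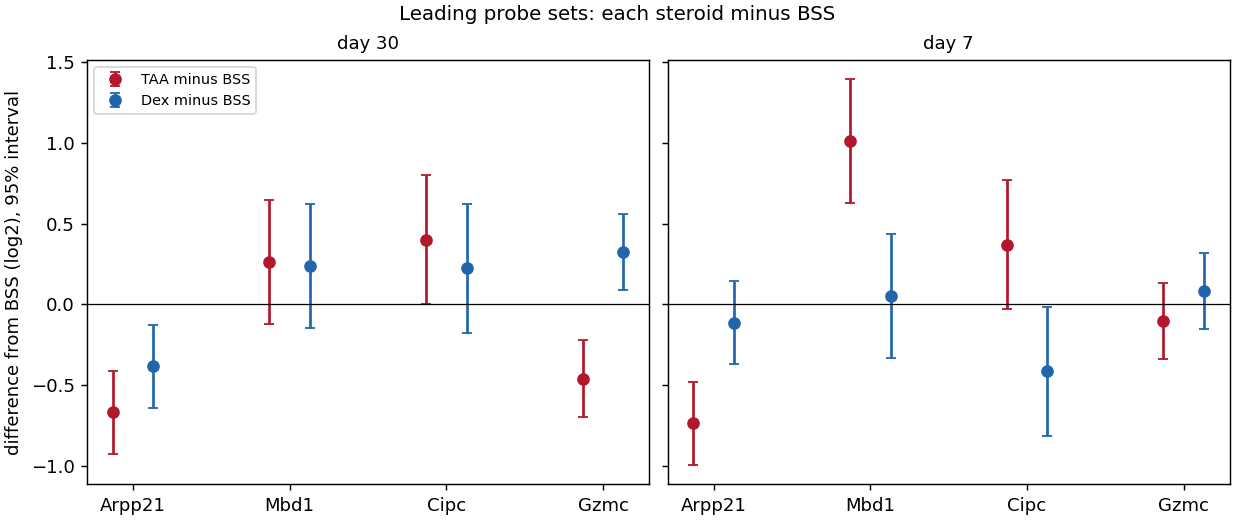
TAA minus BSS and Dex minus BSS on the log2 scale (vertical axis) for the leading probe set of each gene, with the 95% interval from limma, at day 30 and day 7. At day 7 Mbd1 is at 1.01 in TAA and 0.05 in Dex and Arpp21 at -0.74 and -0.11, and at day 30 Gzmc is at -0.46 in TAA and 0.33 in Dex.

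Genes of the common glucocorticoid response were also set beside the members. Of 15 measured, 13 were higher in TAA than in Dex at day 7 (median 0.17) and 6 at day 30 (median -0.034), with 0 called. The largest differences at day 7 were 0.40 for Dusp1, a phosphatase of MAP kinases (SE 0.43), 0.40 for Fkbp5, a chaperone of the receptor (SE 0.17), and 0.36 for Cdkn1a, a cell cycle inhibitor (SE 0.25), and at day 30 these were at 0.11, 0.09 and -0.35. Their score was 0.37, 0.10 and 0.09 in TAA, -0.04, 0.08 and 0.08 in Dex and 0.01, 0.04 and -0.07 in BSS at day 7, where TAA replicate 1 was highest. Mbd1 was also highest in TAA replicate 1, but Cipc was highest in TAA replicate 2.

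The BSS arrays had no part in a difference between the steroids, so BSS day 30 against BSS day 7 could be tested. Of the 14 member probe sets 0 were called, while limma called 1 of all 45101 (0.00222%), with 5123 at an unadjusted p under 0.05. Cipc had the largest difference of the leading probe sets. It read -0.55, -0.08 and -0.30 in BSS at day 30, against -0.13, 0.37 and 0.78 in BSS at day 7. The difference was -0.65 (SE 0.19, 95% interval -1.05 to -0.25) and did not pass (limma, unadjusted p = 0.0035, adjusted p = 0.361), and the arrays overlapped. Its other probe sets were at 0.14 and -0.08. Arpp21 differed by 0.08 (95% interval -0.18 to 0.33, adjusted p = 0.852), Mbd1 by -0.24 (95% interval -0.62 to 0.15, adjusted p = 0.641) and Gzmc by 0.18 (95% interval -0.06 to 0.41, adjusted p = 0.560), all by limma. Without BSS day 30 replicate 2, whose rod score stood apart, Cipc was at -0.76 (adjusted p = 0.0514) and limma called 1820 probe sets, among which the 4 leading ones were not. Without BSS day 7 replicate 3, Cipc was at -0.43 (limma, adjusted p = 0.594). In a fit on the 6 BSS arrays alone, Cipc was at -0.65 (limma, adjusted p = 0.636). Of the 21 clock genes, fitted as gene means, 1 was called between the BSS days: Arntl, which encodes Bmal1, was higher by 1.27 at day 30 (SE 0.13, adjusted p = 0.002). Mice of both days were collected in the morning, per the methods.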

How the data were processed

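The data are 18 expression arrays of mouse RPE/choroid, 3 in each of 6 groups taken from the sample labels. Per the methods, the authors normalized the scans by RMA in GeneSpring with each probe set set to its median over the samples, and they deposited log2 values. For every probe set, the middle of the 18 values is 0 to within 5e-07, so that a weak signal cannot be told from a strong one and no filter was applied. No source used here states the version of the probe set definition, and the labelling kit differs between labels and methods. Genes were named from the platform annotation: 34958 probe sets had 1 symbol, 932 several and 9211 none.

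The functions lmFit, contrasts.fit and eBayes of limma 3.58.1 (R 4.3.3) compared group means over all 18 arrays, with 12 residual degrees of freedom, a prior of 3.29 and two-sided tests adjusted by Benjamini-Hochberg over all 45101 probe sets at 0.05. The fit was tested on simulated data. The members and the gene lists were chosen with earlier results of these data known. For the members, only BSS day 30 against BSS day 7 was tested. The text names every member probe set, for each leading probe set the 3 genes of highest r, and from each pathway list and from the muscle and T and NK cell lists the genes that passed or, where none did, the 3 with the largest TAA minus Dex difference. In lists, the value of a gene averages every probe set that names no other gene. Promoter sequences are from RefSeq, and Python 3.11.15 with matplotlib 3.10.9 drew the plots. Replicate numbers did not mark shared animals. Alternatives were fits on fewer arrays, array weights, another prior, 2 scalings, a replicate block, gene means, the methods' t-test and leaving out each array. P-values measure the spread between animals of 1 experiment.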

Additional observations from a re-analysis of the deposited data

Results flagged for a closer look

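Among the 14 member probe sets, there were 3 cases with every TAA array on 1 side of the BSS mean and every Dex array on the other. The difference between the steroids was part of the choice of the genes and was not tested, and none of the differences from BSS was tested for them. Cipc at day 7 was at 0.37 for TAA minus BSS and -0.41 for Dex minus BSS (log2, SE 0.19), with overlapping arrays in both. Single BSS arrays moved these values: TAA minus BSS was 0.13 without BSS replicate 1 and 0.59 without BSS replicate 3, and Dex minus BSS was -0.65 and -0.19 without the same arrays. Gzmc at day 30 was at -0.46 for TAA minus BSS and 0.33 for Dex minus BSS (SE 0.11). Gzmc at day 7 was at -0.10 and 0.0853, each smaller than its SE of 0.11 and with overlapping arrays.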

How the results depend on the processing

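Under the alternatives the leading probe sets mostly kept their direction. All 28 values (4 leading probe sets in 7 comparisons) kept their sign under the trended robust prior, quantile normalization, median centring of arrays and the replicate block, 27 did with array weights, and 20 of 22 did with the mean of a gene's probe sets. Quantile normalization moved TAA minus Dex at day 7 to -0.67 for Arpp21, 1.52 for Mbd1 and 1.25 for Cipc. The mean of the probe sets of a gene gave -0.17 for Arpp21, 0.31 for Mbd1 and 0.38 for Cipc at day 7 and -0.046 for Arpp21 at day 30, since the other probe sets moved less. Cipc between the BSS days was at -0.93 and called with array weights (adjusted p = 0.0221), and its adjusted p over all alternatives ran from 0.0221 to 0.849. Leaving out 1 array gave TAA minus Dex from -0.66 to -0.59 for Arpp21, 0.82 to 1.19 for Mbd1 and 0.69 to 0.89 for Cipc at day 7 and from -0.85 to -0.70 for Gzmc at day 30. Counts of called probe sets depended on the fit. TAA against Dex called 1 at day 7 with array weights and 1 at day 30 with the trended robust prior. TAA against BSS at day 7 called 1, and 0 in the fit on the arrays of the day, with the trended robust prior and by the methods' t-test; leaving out 1 array gave 0 to 1, with 0 without BSS replicates 2 or 3 or TAA replicates 1 or 3. The BSS days called 1, against 0 in the fit on the 6 BSS arrays, 2 with the trended robust prior and 3234 with array weights, and 0 to 1820 without 1 array: 1820 without day 30 replicate 2, 2 without day 7 replicate 3, and 0 without day 7 replicate 1 or day 30 replicates 1 or 3. Without BSS day 30 replicate 2, TAA against BSS called 3 and Dex against BSS 41 at day 30, and 0 without any other array. Same-numbered arrays did not deviate together (median r of -0.047 over 45 pairs), and the replicate block changed no call, with Cipc between the BSS days at -0.65 (adjusted p = 0.446).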
